A study of Mus musculus with 9 samples.

Results

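A set of 10 amino acid transporter genes was followed across 9 RNA-seq libraries of mouse CD8+ T cells: Slc7a1, Slc7a3, Slc7a5, Slc7a6, Slc7a11, Slc3a2, Slc1a4, Slc1a5, Slc38a1 and Slc38a2. They were taken by symbol from the deposited table, which holds 48709 genes, and all 10 were found and passed the filter on low values, a mean of at least 1 TPM in some group. Slc7a11 passed it through OVA alone, the others through all 3 groups. Each of 3 groups has 3 libraries: controls (CTRL), cells given OVA peptide (OVA), and cells given both the peptide and citraconate (OVA/Citra). The peptide comes from ovalbumin, an antigen widely used in T cell studies. Citraconate is an isomer of the immune metabolite itaconate. CD8+ T cells are the cytotoxic arm of the lymphocytes, which recognise peptides on other cells and kill them. Mouse strain, age, dose and duration of treatment are not stated in the sources used here, nor whether replicates were separate animals or cultures. The p-values therefore measure the spread between these libraries, which may be technical. There was no group with citraconate and without peptide. For 8 libraries the extraction notes write PAS-T cells, a term they leave undefined, and for OVA/Citra replicate 1 OVA-stimulated T cells.

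Activated T cells take up amino acids for protein synthesis and growth through a small set of carriers. Slc3a2 encodes the heavy chain CD98, a glycoprotein that brings its partner light chains to the cell surface. Slc7a5 (LAT1, large neutral amino acids such as leucine), Slc7a6 (y+LAT2, cationic amino acids in exchange for neutral ones) and Slc7a11 (xCT, cystine in exchange for glutamate) encode such light chains. Slc7a1 (CAT1) and Slc7a3 (CAT3) carry arginine and other cationic amino acids without a heavy chain. Slc1a5 (ASCT2) and Slc1a4 (ASCT1) exchange small neutral amino acids, glutamine among them for ASCT2, and Slc38a1 (SNAT1) and Slc38a2 (SNAT2) carry neutral amino acids into the cell with sodium. Several of these genes are textbook targets of ATF4, the transcription factor made when amino acids run short, which binds composite C/EBP-ATF elements.

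Promoter windows are shown for 4 of these genes as examples of genes with a motif match near the start site, 2 with such an element and 2 with another motif. They were picked after their values were seen, so a link between motif and response cannot be read from them. The windows run 5′ to 3′ on the gene's strand from 100 bases before the RefSeq transcription start, in RefSeq build GRCm38.p6, an older build than the GRCm39 named in the submitters' processing notes. Capitals mark matches to TGATGNAA (the C/EBP-ATF element) in the first 2 sequences and to TGACNNNGC (the core of the antioxidant response element bound by NRF2) in the others, on either strand.
Slc7a11, chr3:50443614-50443713, minus strand: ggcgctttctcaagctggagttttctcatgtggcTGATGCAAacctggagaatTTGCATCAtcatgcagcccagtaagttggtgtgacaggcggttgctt
Slc1a4, chr11:20332710-20332813, minus strand: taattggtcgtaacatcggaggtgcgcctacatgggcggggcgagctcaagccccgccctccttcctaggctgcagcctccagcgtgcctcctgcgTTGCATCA
Slc7a1, chr5:148399905-148400004, minus strand: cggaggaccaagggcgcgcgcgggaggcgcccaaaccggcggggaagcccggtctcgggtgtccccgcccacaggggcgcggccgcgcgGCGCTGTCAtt
Slc38a2, chr15:96699729-96699828, minus strand: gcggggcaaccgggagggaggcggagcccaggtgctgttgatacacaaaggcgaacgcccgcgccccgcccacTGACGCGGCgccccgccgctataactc
The Slc7a11 window holds the C/EBP-ATF element in both orientations, beginning 66 and 47 bases before the start, and the Slc1a4 window holds it across the start site itself. Of the 10 genes, 6 had an entry in the RefSeq promoter table (250 bases before to 50 after the start): these 4, Slc7a6 and Slc3a2. TGATGNAA was found in 2 of the 6 and in 3.97% of all 32851 promoters of that table. TGACNNNGC was found in 3 of the 6 (Slc7a1, Slc7a6 and Slc38a2) and in 12.4% of all promoters, and CACGTG, the E-box bound by MYC and MAX, in 0 of the 6 and in 7.15% of all. The shares of all promoters count start sites, and a gene can have several. Counted that way, the 6 genes had 8 starts, of which 2 held TGATGNAA, 4 TGACNNNGC and 0 CACGTG. Slc3a2 held none of the 3 motifs in the bases searched. A match describes letters and is no evidence of binding, and the lack of a match says nothing of elements outside the bases searched.

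Levels are in TPM, which scales for gene length and sets every library to the same total. Reads assigned to genes, worked back from the table, numbered 14754470 to 17384330 per library. T cell markers were present in all libraries, with the 11 listed genes summing to 7898 to 8413 TPM in CTRL, 2516 to 4234 in OVA and 7236 to 8606 in OVA/Citra. The 8 natural killer markers, some of which activated T cells also make, summed to 1296 to 2091, 6919 to 12927 and 1997 to 3955 TPM in the same order, most of it Gzma. B cell markers summed to 14.0 to 16.1 TPM in CTRL, 1.52 to 2.75 in OVA and 1.41 to 2.25 in OVA/Citra. Myeloid and dendritic markers summed to 14.6 to 18.3, 25.8 to 30.6 and 19.8 to 28.5 TPM in the same order. Of these, Clec9a, Siglech and Csf3r were at 0 throughout and Itgam was absent from the table. Cd14 stood at 0 to 0.623 TPM in CTRL and 5.88 to 9.73 in OVA, and Cd68 at 4.02 to 8.11 and 12.1 to 14.0. Besides these, only Csf1r, at most 0.385 TPM, was higher in OVA than in CTRL without overlap among the myeloid and dendritic markers. Erythroid and platelet markers summed to at most 13.1 TPM with Hbb-bs and Ppbp at 0, and CD4 T cell markers to at most 31.2 TPM. Stromal and epithelial markers summed to 44.7 to 48.4, 264 to 387 and 65.0 to 84.7 TPM, most of it Pecam1, with Col3a1 and Krt8 at 0. The part of these markers in the transporter results was not tested. In bulk libraries, fewer cells of a type and less RNA per cell cannot be told apart.

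The comparison of OVA with CTRL asks what the peptide changed. With OVA, 8 of the 10 transporter genes rose, Slc38a2 fell and Slc7a6 did not pass the test. Their summed level went from 584 ± 15.6 TPM in CTRL to 1272 ± 85.5 TPM in OVA (SD, n = 3), and the sums of the individual libraries were 573 to 602 and 1211 to 1369.6 TPM. The median log2 change of the 10 genes was 1.10, against -0.08 over all 11971 genes tested. Slc7a11, which passed the filter only through the group where it is high, had to differ, and without it 7 of 9 genes were higher and 1 lower, with a median of 1.03. In this comparison limma called 71.9% of all genes at an adjusted p under 0.05, 32.1% as higher and 39.8% as lower. For all 10 members the libraries of the groups did not overlap, as was true of 75.0% of the genes tested.

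The next comparison sets OVA/Citra against OVA, the effect of citraconate in the presence of peptide. Of the 10 genes 9 were lower with citraconate, Slc7a6 did not pass, and 0 were higher. The summed level was 652 to 752 TPM in the OVA/Citra libraries, 689.7 ± 54.1 TPM on average. All genes tested had a median log2 change of 0.12 in this comparison, so log2 changes between OVA/Citra and OVA are given relative to that median in the text on these results unless said otherwise, while their p tests the change before the median is taken off. On that scale the median of the 10 genes was -0.85, and without Slc7a11 0 of 9 were higher and 8 lower, with a median of -0.63. Limma called 59.0% of all genes, 37.8% as higher and 21.2% as lower. With the median of ratios scaling the calls over all genes were 3482 higher and 3589 lower, against 4522 and 2543, and the 10 members gave 0 higher and 10 lower. The libraries did not overlap for 9 of the 10 genes, against 66.1% of all genes. The comparisons share the OVA libraries, so opposite movements in them are not independent.

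Against CTRL, the OVA/Citra libraries had 5 transporter genes higher (Slc7a1, Slc7a3, Slc1a4, Slc1a5 and Slc38a1), Slc38a2 lower, and 4 that did not pass (Slc7a5, Slc3a2, Slc7a6 and Slc7a11). Limma called 59.4% of all genes here, 33.1% as higher and 26.3% as lower. Libraries of the groups did not overlap for 7 of the 10 members and for 67.4% of all genes. The median log2 change of the 10 genes was 0.31, beside 0.04 over all genes. Leaving out replicate 2 of both OVA and OVA/Citra, an alternative added after the data were seen, gave the same counts in all 3 comparisons: 8 higher and 1 lower, 0 higher and 9 lower, and 5 higher and 1 lower.

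**Figure D1:**
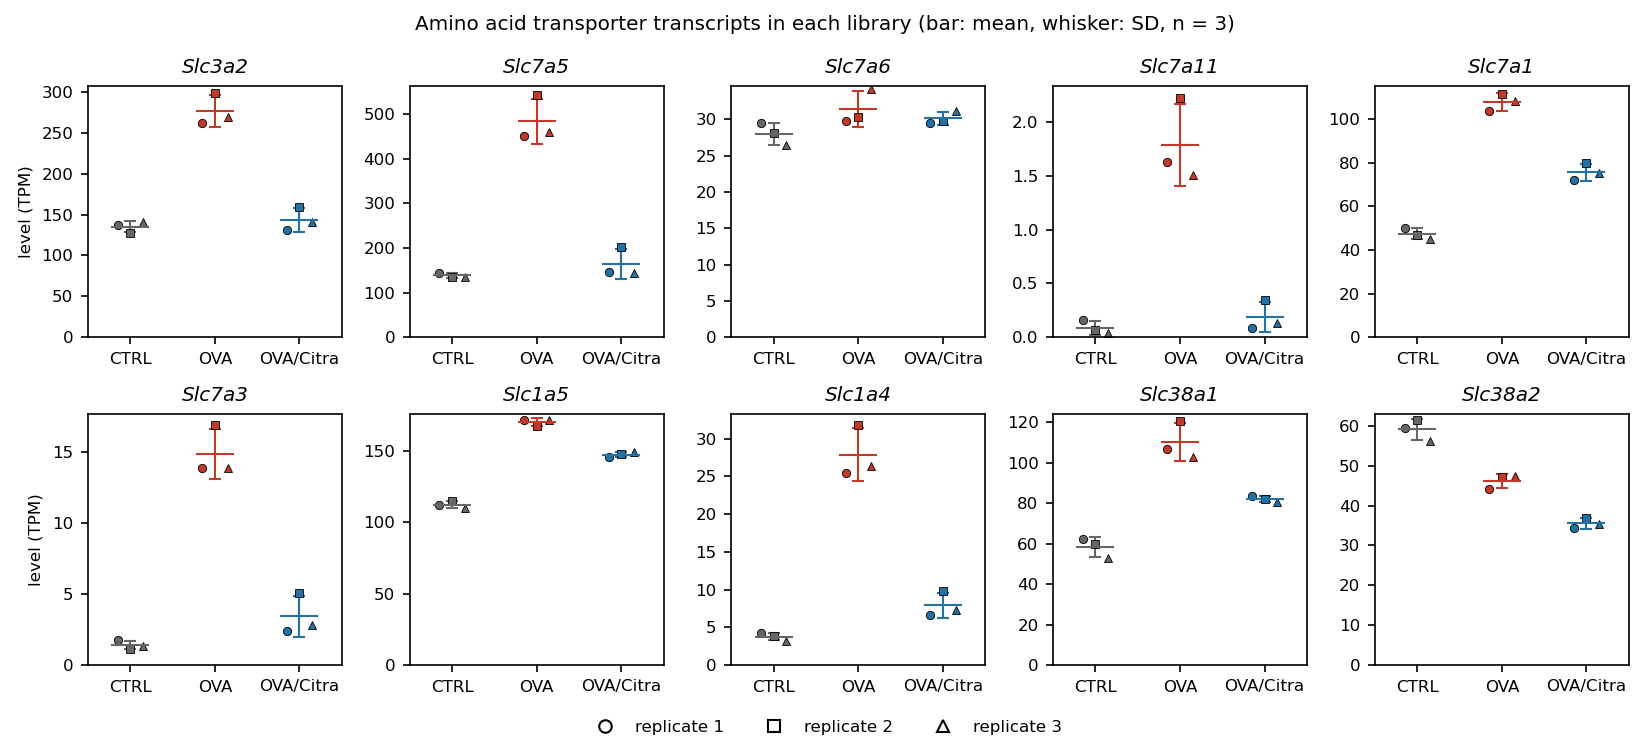
Level of each of the 10 transporter genes (TPM, linear axis from 0) in every library of CTRL, OVA and OVA/Citra. Points are libraries with the symbol giving the replicate, bars are group means and whiskers SD (n = 3). The OVA/Citra libraries of Slc3a2, Slc7a5 and Slc7a11 overlap those of CTRL, Slc7a1, Slc1a5 and Slc38a1 lie between CTRL and OVA, and Slc38a2 steps down from CTRL to OVA to OVA/Citra.

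**Figure D2:**
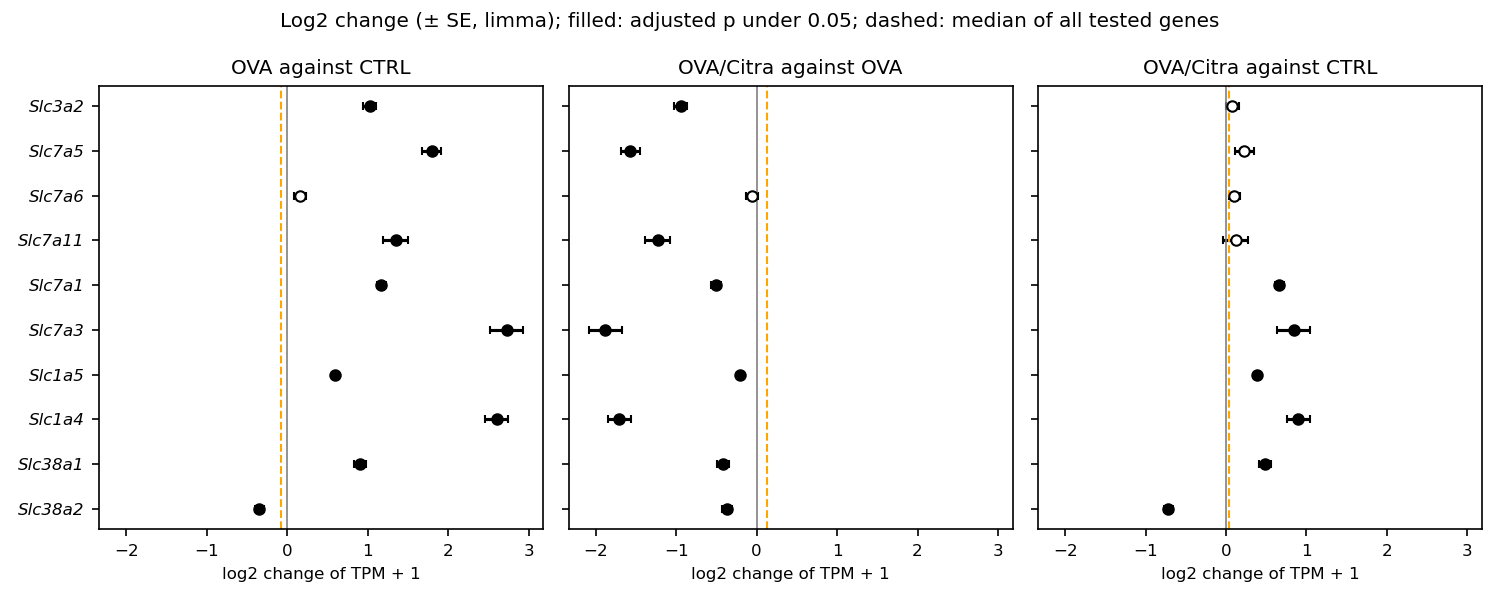
Log2 change of TPM + 1 with its SE from limma for the 10 genes in the 3 comparisons, before the median of all genes is taken off. Filled points passed an adjusted p of 0.05 and the dashed line is the median of all genes tested. Changes with OVA reach 2.73 (Slc7a3), those of OVA/Citra against OVA are all below 0, and Slc38a2 is below 0 in all 3 panels.

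Slc3a2, the heavy chain, stood at 138, 127 and 141 TPM in the 3 CTRL libraries, at 262, 299 and 269 TPM in OVA and at 131, 159 and 141 TPM in OVA/Citra. OVA libraries lay above both other groups, and OVA/Citra overlapped CTRL. The rise with OVA came to 2.05-fold (log2 1.03 ± 0.08 SE, adjusted p = 1.39e-06). With citraconate the log2 change was -0.95 ± 0.08 before the median of all genes was taken off (adjusted p = 1.32e-05) and -1.07 relative. Between OVA/Citra and CTRL the log2 difference was 0.08 ± 0.08 and did not pass (adjusted p = 0.402).

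Slc7a5, the LAT1 light chain, was the most abundant of the 10 transcripts in OVA. It stood at 144, 135 and 136 TPM in CTRL, at 452, 542 and 459 TPM in OVA and at 147, 202 and 143 TPM in OVA/Citra. OVA/Citra replicate 2 lay above the CTRL range, replicate 1 just above it, and replicate 3 within it. Slc7a5 rose 3.5-fold with OVA (log2 1.80 ± 0.12, adjusted p = 6.1e-07) and was lower with citraconate by a relative log2 of -1.69 ± 0.12 (adjusted p = 9.45e-06). The difference between OVA/Citra and CTRL (log2 0.23 ± 0.12) did not pass (adjusted p = 0.131).

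Slc7a11, the cystine carrier xCT, was the rarest of the 10. CTRL libraries held 0.160, 0.0688 and 0.0365 TPM, which are 11, 5 and 3 reads. OVA libraries held 1.63, 2.22 and 1.51 TPM (126, 169 and 124 reads), and OVA/Citra libraries 0.0842, 0.341 and 0.130 TPM (6, 24 and 10 reads). The OVA libraries stood far above the rest, and OVA/Citra overlapped CTRL. Pooled over libraries, the level in OVA was 20.9 times that in CTRL (exact 95% interval 13.2 to 35.1) and 9.71 times that in OVA/Citra (7.01 to 13.8), intervals that cover counting error only. The gene was tested only because OVA exceeded the filter, so its calls are no separate support. On log2(TPM + 1), which understates changes of such low genes, the change was 1.35 ± 0.15 with OVA (adjusted p = 2.23e-05). With citraconate it was -1.23 ± 0.15 before the median of all genes was taken off (adjusted p = 0.000103) and -1.35 relative. For OVA/Citra against CTRL limma gave log2 0.12 ± 0.15 (adjusted p = 0.53), while the pooled reads gave a ratio of 2.16 (1.22 to 3.94) that rests largely on OVA/Citra replicate 2.

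Slc7a6, the y+LAT2 light chain, barely moved. Its levels were 29.5, 28.1 and 26.5 TPM in CTRL, 29.8, 30.3 and 34.2 TPM in OVA and 29.5, 29.7 and 31.1 TPM in OVA/Citra. The lowest OVA library lay just above the highest CTRL library, and the log2 change with OVA was 0.16 ± 0.07 (adjusted p = 0.0637). This value depends on scaling: with the median of ratios it was 0.25 (adjusted p = 0.0029), which is a call. For citraconate the log2 change was -0.06 ± 0.07 (relative -0.18) and did not pass (adjusted p = 0.504), while with the median of ratios it was called lower (log2 -0.19 on that scaling, adjusted p = 0.0169).

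The light chains share Slc3a2 as their heavy chain. Transcripts of all of them (Slc7a5, Slc7a6, Slc7a7, Slc7a8, Slc7a10 and Slc7a11) were therefore set against Slc3a2 within each library, a ratio that scaling between libraries cannot change. It was 1.27, 1.28 and 1.16 in CTRL, 1.86, 1.94 and 1.85 in OVA, and 1.37, 1.47 and 1.25 in OVA/Citra. OVA libraries stood apart from both other groups, which overlapped each other. Slc7a5 alone gave 1.02 ± 0.0496 transcripts per Slc3a2 transcript in CTRL, 1.75 ± 0.0581 in OVA and 1.14 ± 0.127 in OVA/Citra (SD, n = 3). An exact two-sided permutation test gave p = 0.1 for OVA against either other group, the smallest p that 3 against 3 libraries allows (0.125 adjusted over the 15 ratio and sum tests), and p = 0.3 for OVA/Citra against CTRL. Slc7a5 went from 23.7% of the summed transcripts of the 10 genes in CTRL to 38.1% in OVA and 23.8% in OVA/Citra.

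Among the cationic carriers, Slc7a1 (CAT1), the main arginine carrier of many cell types, stood at 50.2, 46.8 and 45.2 TPM in CTRL, 104, 112 and 108 TPM in OVA and 71.9, 79.7 and 75.4 TPM in OVA/Citra. None of the 3 groups overlapped. The gene rose 2.28-fold with OVA (log2 1.17 ± 0.06, adjusted p = 1.09e-07), was lower with citraconate (relative log2 -0.63 ± 0.06, adjusted p = 7.39e-05) and remained 1.60-fold above CTRL (adjusted p = 8.05e-06).

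Slc7a3 (CAT3), a carrier best known from the brain and from embryonic cells, had 1.74, 1.12 and 1.33 TPM in CTRL, 13.8, 16.9 and 13.8 TPM in OVA and 2.38, 5.08 and 2.82 TPM in OVA/Citra. Reads per library were 26 to 38 in CTRL and 342 to 409 in OVA. The gene rose 10.6-fold with OVA (log2 2.73 ± 0.20, adjusted p = 1.22e-06) and was lower with citraconate by a relative log2 of -2.01 ± 0.20 (adjusted p = 4.97e-05). It stayed 2.45-fold above CTRL (adjusted p = 0.00502), with OVA/Citra replicate 2 the highest of its group. Slc7a1 remained the far more abundant of the pair in every group.

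Of the neutral exchangers, Slc1a5 (ASCT2) was abundant in all groups: 112, 115 and 110.3 TPM in CTRL, 172, 167 and 172 TPM in OVA, and 146, 148 and 149 TPM in OVA/Citra. Libraries of a group lay close together and the groups did not overlap. The rise with OVA was 1.52-fold (log2 0.60 ± 0.04, adjusted p = 7e-07), the relative change with citraconate was -0.33 ± 0.04 (adjusted p = 0.0016), and OVA/Citra stayed 1.31-fold above CTRL (adjusted p = 2.5e-05).

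Slc1a4 (ASCT1), which carries serine, alanine and cysteine, moved by much more from a lower level. It had 4.23, 3.78 and 3.23 TPM in CTRL, 25.5, 31.9 and 26.4 TPM in OVA and 6.62, 9.75 and 7.33 TPM in OVA/Citra. This was a 7.45-fold rise with OVA (log2 2.60 ± 0.14, adjusted p = 1.88e-07), a relative log2 change of -1.83 ± 0.14 with citraconate (adjusted p = 1.42e-05) and a level 2.11-fold above CTRL in OVA/Citra (adjusted p = 0.000411). Slc1a5 transcripts per Slc1a4 transcript numbered 26.5, 30.4 and 34.1 in CTRL, 6.75, 5.25 and 6.52 in OVA and 22.0, 15.2 and 20.4 in OVA/Citra. The 3 groups did not overlap in this ratio, and each pair of groups gave p = 0.1 in the exact permutation test.

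The sodium-coupled carriers moved in opposite directions with OVA, and both were lower with citraconate than with OVA. Slc38a1 (SNAT1) stood at 62.3, 59.8 and 52.9 TPM in CTRL, 107, 121 and 103 TPM in OVA and 83.5, 82.0 and 80.6 TPM in OVA/Citra, without overlap between groups. It rose 1.89-fold with OVA (log2 0.91 ± 0.07, adjusted p = 2.38e-06), was lower with citraconate (relative log2 -0.54 ± 0.07, adjusted p = 0.000897) and stayed 1.41-fold above CTRL (adjusted p = 0.000313).

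Slc38a2 (SNAT2), known as the carrier that cells induce when amino acids are withdrawn, was the member that fell with OVA. It had 59.6, 61.4 and 56.3 TPM in CTRL, 44.2, 47.1 and 47.5 TPM in OVA and 34.3, 37.0 and 35.4 TPM in OVA/Citra. Each group lay below the one before it. The fall was log2 -0.35 ± 0.06 with OVA (adjusted p = 0.000321). With citraconate against OVA it was -0.37 ± 0.06 before the median of all genes was taken off (adjusted p = 0.000385) and -0.49 relative. OVA/Citra lay below CTRL by log2 -0.72 ± 0.06 (adjusted p = 3.81e-06). The change kept its direction and passed in all 3 comparisons under each of the 20 other settings tried.

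Slc38a1 transcripts per Slc38a2 transcript numbered 1.04, 0.974 and 0.940 in CTRL, 2.42, 2.57 and 2.17 in OVA and 2.43, 2.22 and 2.28 in OVA/Citra. CTRL libraries stood below both peptide groups (exact permutation p = 0.1 each), which overlapped (p = 0.7). The log2 difference between OVA/Citra and OVA was -0.04 and turned to 0.011 without OVA replicate 2. This ratio with citraconate stayed near that of OVA, whereas Slc7a5 per Slc3a2 lay near that of CTRL.

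**Figure D3:**
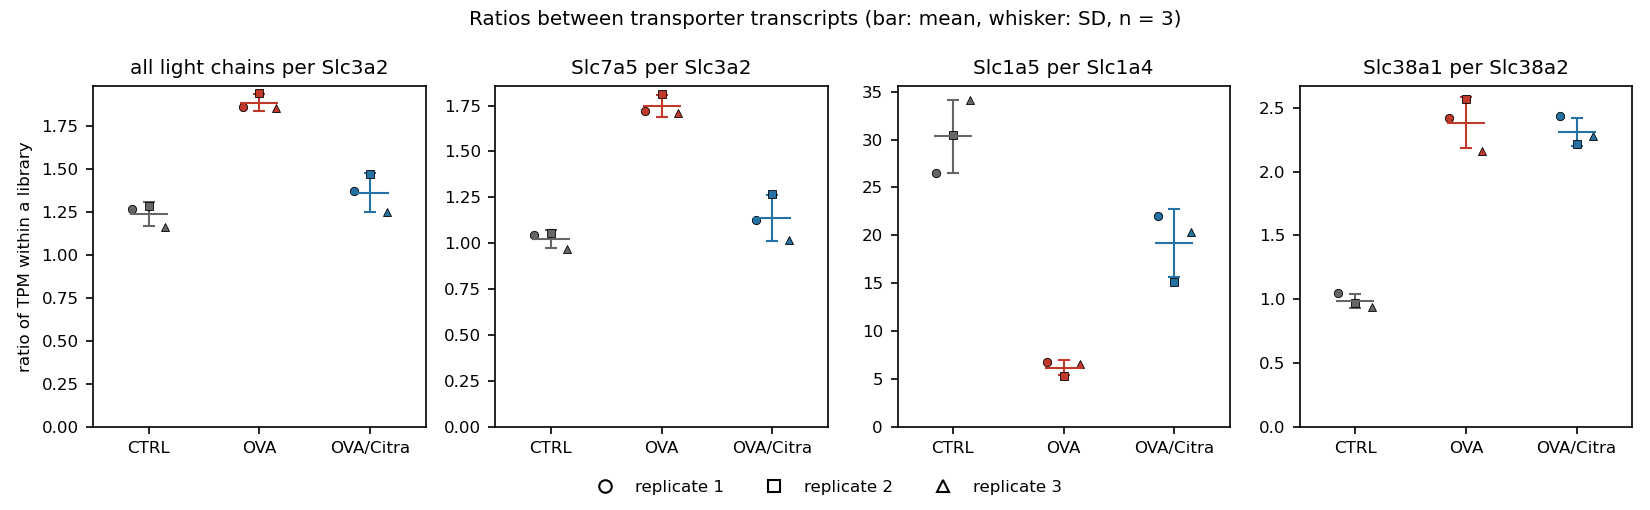
Ratios between transporter transcripts within each library (linear axes from 0), with group means as bars and SD as whiskers (n = 3). Light chains per Slc3a2 and Slc7a5 per Slc3a2 are high in OVA alone, Slc1a5 per Slc1a4 is lowest in OVA, and Slc38a1 per Slc38a2 is above 2 in all libraries of both peptide groups.

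The members differed in how far the citraconate level lay from CTRL towards OVA. Placed on a scale from the CTRL mean (0%) to the OVA mean (100%) in TPM, the OVA/Citra libraries averaged 5.69 ± 8.06% for Slc7a11, 5.75 ± 10.1% for Slc3a2 and 7.40 ± 9.44% for Slc7a5 (SD over 3 libraries). Slc7a3 averaged 15.1 ± 10.8% and Slc1a4 17.2 ± 6.80%. Slc38a1 averaged 45.7 ± 2.85%, Slc7a1 46.7 ± 6.40% and Slc1a5 60.3 ± 3.10%. The highest library of the first 5 genes, 27.4% for Slc7a3, lay below the lowest of the last 3, 40.6% for Slc7a1. The scale uses the CTRL and OVA means as fixed points, so these values are a description with no test. It is linear in TPM, and a low percent on it is not a small fold over CTRL. OVA/Citra stood 2.45-fold above CTRL for Slc7a3 and 2.11-fold for Slc1a4. For Slc38a1, Slc7a1 and Slc1a5 the folds were 1.41, 1.60 and 1.31.

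OVA/Citra replicate 2 was the highest of its group for 7 of the 10 genes, and OVA replicate 2 likewise for 7 of 10. CTRL replicate 1 was also the highest of its group for 7 of 10. OVA/Citra replicate 1, the library with the different extraction note, was the lowest of its group for 8 of 10. On the scale from CTRL to OVA, OVA/Citra replicate 2 stood at 18.3% for Slc7a5, against 2.56% and 1.36% in replicates 1 and 3, and at 16.6% for Slc3a2, against -3.28% and 3.90%. The same library held the largest share of granzyme transcripts of its group, 4.87% of all transcripts against 3.22% and 3.30%, and OVA replicate 2 that of its own, 9.54% against 8.38% and 7.66%. Whether the granzyme share has a part in the transporter levels was not tested beyond leaving granzymes out of the total, which gave 10, 9 and 6 called members in the 3 comparisons.

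**Figure D4:**
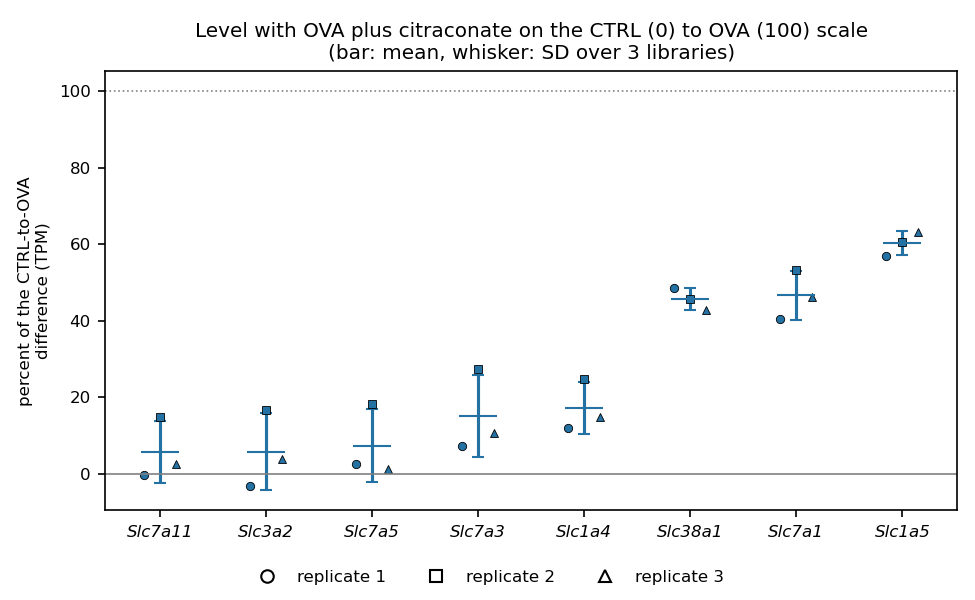
Level of the OVA/Citra libraries for the 8 genes that rose with OVA, as a percent of the difference between the CTRL mean (0) and the OVA mean (100). Points are libraries, bars means and whiskers SD (n = 3). Slc7a11, Slc3a2, Slc7a5, Slc7a3 and Slc1a4 lie below 30%, and Slc38a1, Slc7a1 and Slc1a5 above 40%; replicate 2 is the highest library for the first 5.

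The order of the levels also changed. In CTRL, Slc7a5 and Slc3a2 were highest with overlapping libraries, followed by Slc1a5, then Slc38a2 and Slc38a1, which overlapped, and Slc7a1, Slc7a6, Slc1a4, Slc7a3 and Slc7a11. In OVA, Slc7a5 led Slc3a2 and Slc1a5 without overlap. Slc38a1 and Slc7a1 followed with overlapping libraries, then Slc38a2, Slc7a6 and Slc1a4, the latter pair overlapping. In OVA/Citra, Slc7a5, Slc1a5 and Slc3a2 overlapped at the top, and Slc38a1 lay above Slc7a1 without overlap.

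Beyond these 10, a list of 46 other amino acid transporter genes was read in the same libraries. All 46 were in the table, 30 were above 0 in any library and 16 passed the filter. Slc6a9, Slc7a7 and Slc1a2 passed it through the peptide groups and not through CTRL, and Slc43a1 through CTRL alone. Their calls against CTRL are therefore no separate support. With OVA 7 of the 16 were higher and 3 lower, and 6 missed the threshold. The list had a median log2 change of 0.12, beside -0.08 over all genes. With citraconate against OVA 5 were higher and 5 lower, and the relative median was -0.24. Scaling by the median of ratios gave 4 higher and 8 lower. Against CTRL 9 were higher and 4 lower in OVA/Citra. The share called was 62.5% in each of the first 2 comparisons, beside 71.9% and 59.0% of all genes, and 81.2% in the third, beside 59.4%.

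Among these genes Slc6a9 (the glycine carrier GLYT1) went from 0.864 ± 0.291 TPM in CTRL to 10.9 ± 3.59 in OVA and 2.53 ± 0.594 in OVA/Citra (adjusted p = 1.93e-06 and 9.52e-05 for the 2 steps). Slc16a10 (TAT1, aromatic amino acids) rose from 3.81 ± 0.0576 to 16.8 ± 2.24 TPM with OVA (adjusted p = 1.37e-07) and stood at 14.0 ± 0.450 with citraconate. Slc38a7, a lysosomal glutamine carrier, rose from 4.97 ± 0.298 to 13.7 ± 1.68 TPM (adjusted p = 1.3e-06). Slc43a2 (LAT4), which carries large neutral amino acids without a heavy chain, fell from 10.8 ± 0.765 to 3.78 ± 0.379 TPM (adjusted p = 1.62e-06), where Slc7a5 rose. With citraconate Slc38a10 was lower (96.1 ± 8.21 to 69.1 ± 2.73 TPM, adjusted p = 0.000185). The taurine carrier gene Slc6a6 was higher (56.2 ± 8.13 to 89.5 ± 5.98 TPM, adjusted p = 0.000238), and so was Slc1a2, a glutamate carrier, from 1.17 ± 0.426 to 3.78 ± 0.528 TPM (adjusted p = 0.000248), against 0.0407 ± 0.0403 TPM in CTRL.

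**Figure D5:**
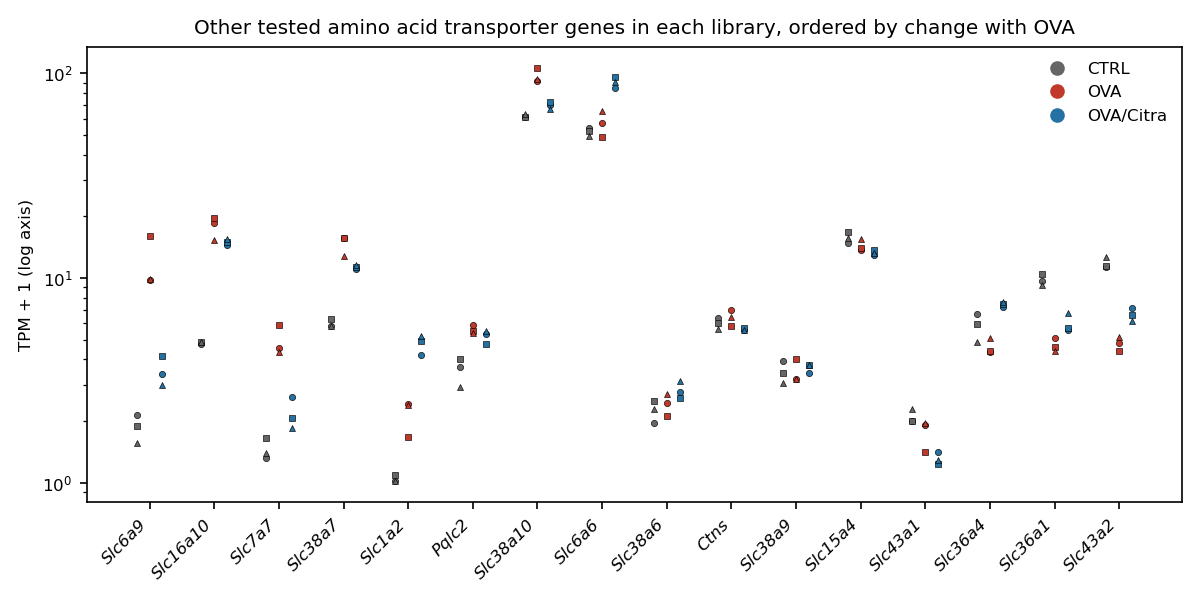
Level (TPM + 1, log axis) of the 16 other amino acid transporter genes that passed the filter, in every library (circle replicate 1, square replicate 2, triangle replicate 3), ordered by their change with OVA. Slc6a9 and Slc16a10 rise with OVA, Slc43a2 falls, and Slc6a6 and Slc1a2 are highest in OVA/Citra. Pqlc2 is the older symbol of Slc66a1.

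Factors known to regulate these carriers were read from a list of 20, of which 19 were tested. With OVA 8 were higher and 8 lower, and with citraconate against OVA 7 were higher and 10 lower (84.2% and 89.5% called, against 71.9% and 59.0% of all genes). Atf4 transcripts went from 453 ± 4.99 TPM in CTRL to 625 ± 5.65 in OVA (adjusted p = 3.41e-06) and 423 ± 12.4 in OVA/Citra (adjusted p = 7.73e-06 against OVA). Nupr1, a stress-induced cofactor, went from 0.643 ± 0.161 to 17.6 ± 2.62 and 2.45 ± 0.699 TPM (adjusted p = 6.97e-08 and 6.45e-06), and Trib3, an ATF4 target that feeds back on it, was lower with citraconate (42.9 ± 7.01 to 9.01 ± 2.11 TPM, adjusted p = 8.05e-06). Nupr1 passed the filter on low values through the peptide groups and not through CTRL. Its call against CTRL, which enters the counts above, is therefore no separate support. Myc, a known activator of Slc7a5 and Slc1a5 in T cells, moved the opposite way to them: 652 ± 6.45 TPM in CTRL, 152 ± 29.8 in OVA and 548 ± 12.2 in OVA/Citra (adjusted p = 1.05e-07 and 5.32e-06). Txnip fell with OVA from 347 ± 19.5 to 207 ± 6.02 TPM (adjusted p = 1.38e-06). ATF4 is controlled largely through translation, which RNA levels do not show.

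The genes whose profile over the 9 libraries was most like that of a member were found by the smallest root mean square difference of centred log2(TPM + 1) among 10947 tested genes with a usual gene symbol. For Slc3a2 these were Manf (0.0423), a secreted protein of the endoplasmic reticulum, Nars (0.0489), the asparaginyl-tRNA synthetase, and Dnajc3 (0.0598), a chaperone partner in the same organelle. Manf stood at 99.6 ± 1.54, 199 ± 20.9 and 105 ± 8.50 TPM in CTRL, OVA and OVA/Citra. For Slc7a5 they were Plcg2 (0.0594), a phospholipase of receptor signalling, Rassf6 (0.106) and Ptpre (0.115), a receptor tyrosine phosphatase, and for Slc7a11 Rpp40 (0.0517), a subunit of ribonuclease P, Nt5dc3 (0.0619) and Garem (0.0905). The measure compares changes on log2(TPM + 1), where the added 1 shrinks those of a gene as low as Slc7a11. Rpp40 went from 1.67 to 5.86 TPM with OVA and Nt5dc3 from 6.23 to 16.7 TPM, smaller folds than the 20.2-fold of Slc7a11. Slc7a5 and Slc3a2 differed from each other by 0.345. Rassf6 and Garem passed the filter on low values through OVA alone. The likenesses to all 3 members rest on 3 group levels and carry no test.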

How the data were processed

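The 9 RNA-seq libraries were run on an Illumina NextSeq instrument, per the labels' protocols. The authors deposited 1 table with a TPM value per gene symbol and library: its name says FPKM, whereas the values of every library total 1000000. Trim Galore 0.5.0, Salmon and GRCm39 are named in the submitters' processing notes, and which annotation was used is not stated there, nor how reads shared by near-identical genes were assigned.

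Read numbers were worked back from the TPM values, and whole reads came out for 16734 of 16734 genes detected in 2 or more libraries, within 0.0001 reads or 3e-08 of the count. The 11971 genes that averaged 1 TPM or more in some group were tested on log2(TPM + 1) with limma 3.58.1 in R 4.3.3 (lmFit, then eBayes with a trend) over all 9 libraries. P-values are two-sided, with Benjamini-Hochberg adjustment over all tested genes of a comparison, and calls were made at 0.05. Folds are ratios of group mean TPM. Both steps were tested on simulated data. Ratios within a library were compared with exact permutation tests.

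The alternatives were 10 other settings, each library left out in turn (9), and the added removal of replicate 2 from both peptide groups. Of the other lists, the 4 genes with the smallest adjusted p in OVA against CTRL and in OVA/Citra against OVA were named, and for 3 members the 3 genes with the most similar profile. Members and lists were chosen with earlier results of these data known. The lists were written from general knowledge, with older symbols matched through RefSeq. Promoters are from RefSeq (GRCm38.p6), matched by symbol. Some entries were not analysed here.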

Additional observations from a re-analysis of the deposited data

How the results depend on the processing

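The counts of called members were 9, 9 and 6 (OVA against CTRL, OVA/Citra against OVA, OVA/Citra against CTRL) and stayed at those values when any 1 library was left out. Replicate numbers were not taken as pairs: same-numbered libraries of different groups had correlations of deviations from -0.01 to 0.30 (8 of 9 above 0, the highest for OVA and OVA/Citra replicate 2), and different-numbered ones from -0.25 to 0.17. A library correlated best with its own number in 7 of 18 cases. With 3 candidate libraries in each case, this is near the share that unpaired numbers would give. The correlations come from the data only and do not settle whether the numbers mark pairs. With the replicate block the counts of called members were again 9, 9 and 6 and those of all genes 8578, 7004 and 7128, against 8602, 7065 and 7110 without it. Leaving out replicate 2 of both peptide groups was chosen after seeing the data and gave 8378, 6385 and 6992 genes. Slc7a6 added a call with OVA under the median of ratios (log2 0.25), quantile normalization (0.22), granzymes left out (0.27) and voom on recovered reads (0.21), and a lower call with citraconate under the median of ratios (-0.19) and quantile normalization (-0.19). Leaving out 1 library moved its citraconate change between -0.094 and 0.0036 (0.0036 without OVA replicate 3) before the median of all genes was taken off, and between -0.20 and -0.14 after, with no turn of sign. Quantile normalization turned the uncalled change of Slc7a11 in OVA/Citra against CTRL to -0.11. Leaving out 1 library moved the uncalled log2 difference of Slc38a1 per Slc38a2 between OVA/Citra and OVA from -0.11 to 0.011 (0.011 without OVA replicate 2). With a filter of 5 TPM, Slc7a11 was not tested. The cause of these changes was not tested. The split of all called genes for OVA/Citra against OVA was 4522 higher and 2543 lower, and 3482 and 3589 with the median of ratios. For OVA against CTRL it was 3837 and 4765, and 4406 and 4288. In CTRL, 3 to 11 reads per library limit what can be said of Slc7a11.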

Other observations

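Enzymes that use the carried amino acids were read from a list of 30 genes, of which 24 were tested. With OVA 16 were higher and 7 lower (95.8% called, against 71.9% of all genes), and with citraconate against OVA 4 were higher and 12 lower (66.7% called, against 59.0%). Asns, asparagine synthetase, went from 55.0 ± 2.81 TPM in CTRL to 223 ± 20.4 in OVA and 76.6 ± 5.73 in OVA/Citra (limma adjusted p = 2.14e-08 and 2.99e-06 for the 2 steps, n = 3 per group). Cth, which makes cysteine from cystathionine, rose from 0.201 ± 0.174 to 20.1 ± 1.14 TPM with OVA (adjusted p = 4.21e-09) and stood at 8.67 ± 0.463 TPM with citraconate. Cth passed the filter on low values through the peptide groups and not through CTRL, as did Il4i1 of the same list. Their comparisons with CTRL are therefore no separate support, though both genes enter the counts above. Ggt1, which begins the breakdown of glutathione outside the cell, fell from 28.9 ± 2.46 to 0.535 ± 0.136 TPM with OVA (adjusted p = 4.6e-09) and stood at 0.648 ± 0.188 TPM with citraconate. Ggt1 passed the filter through CTRL alone, so its calls against CTRL are no separate support either. Odc1, the first enzyme of polyamine synthesis from ornithine, rose from 381 ± 12.7 to 827 ± 35.0 TPM (adjusted p = 3.29e-08). The serine synthesis genes Psat1 (216 ± 10.8 to 117 ± 2.40 TPM, adjusted p = 5.43e-06) and Phgdh (375 ± 3.93 to 268 ± 3.60 TPM, adjusted p = 1.02e-05) and the glycine-forming Shmt2 (447 ± 35.4 to 229 ± 8.98 TPM, adjusted p = 6.45e-06) were lower with citraconate than with OVA.

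Genes through which mTORC1 senses amino acids, 32 tested of 33 listed, were mixed: 11 were higher and 12 lower with OVA (71.9% called, equal to the share of all genes), and 7 were higher and 6 lower with citraconate against OVA (40.6% called, against 59.0%). Rragd passed the filter through CTRL and OVA/Citra and not through OVA, so its comparisons with OVA are no separate support. Gatsl3, the older symbol of the arginine sensor Castor1, fell with OVA from 27.7 ± 6.65 to 3.05 ± 0.942 TPM (adjusted p = 2.77e-06) and stood at 4.31 ± 1.57 TPM with citraconate. Wdr24, a subunit of the GATOR2 complex, went from 28.2 ± 1.07 to 17.3 ± 0.587 and back to 26.9 ± 0.993 TPM (adjusted p = 4.89e-06 and 3.58e-05), whereas Seh1l of the same complex fell from 52.4 ± 3.22 to 33.4 ± 1.41 TPM with OVA (adjusted p = 6.74e-06) and stood at 33.6 ± 0.614 TPM with citraconate. Sec13, a further subunit, rose with OVA from 94.0 ± 2.84 to 164 ± 7.93 TPM (adjusted p = 6.74e-07). With citraconate Sesn3, a sestrin, was higher than with OVA (18.8 ± 2.93 to 33.3 ± 1.55 TPM, adjusted p = 0.000188), and Rptor and Rheb, which encode an mTORC1 subunit and its activator, were lower (11.8 ± 0.0612 to 7.78 ± 0.669 TPM, adjusted p = 0.000299, and 18.4 ± 2.46 to 11.2 ± 0.991 TPM, adjusted p = 0.00038).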
